A study of Mus musculus with 16 samples.

Results

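The Gadd45 genes (growth arrest and DNA damage inducible) are a family of 3 in the mouse, Gadd45a, Gadd45b and Gadd45g, and were taken by symbol from the deposited expression tables. All 3 were found among 22440 genes per table. The series studied DNA breaks and early-response transcription in primary cortical neurons of Swiss-Webster mice, taken at embryonic day 16 and grown in culture. Of its 16 samples, 4 are RNA libraries, and the 12 chromatin samples were not analysed here. The etoposide pair is a culture titled as control and a culture given 5 µM etoposide, which traps type II topoisomerases on broken DNA. The NMDA pair is a further control culture and a culture given NMDA, which opens one kind of glutamate receptor. The growth protocol, written for most of the experiments, has 10 min of 50 µM NMDA and then 10 min of recovery. The sources used here do not give the length of the etoposide treatment, or what the control cultures received. With a single library in every group there is no replicate check, so values are given without p-values.

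GADD45 proteins are small and have no known enzyme activity, and they act by binding other proteins. They switch on the kinase Map3k4, which feeds the p38 and JNK kinases, they bind the cell cycle proteins Pcna, Cdkn1a and Cdk1, and they have been linked to the removal of methyl groups from DNA through repair enzymes. Gadd45a is a classical target of p53 after DNA damage. Gadd45b and Gadd45g are known as stress and cytokine response genes, and Gadd45b in neurons also as an activity-induced gene linked to demethylation at growth factor genes such as Bdnf.

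The members share their gene structure. In the GENCODE annotation of mm9, the build of the tables, each coding transcript has 4 exons, and exon 2 is 102 bases long in all 3 genes. Gadd45a (chromosome 6, minus strand, 66985090 to 66987400) has a transcript of 1223 bases and codes for 165 amino acids. Gadd45b (chromosome 10, plus strand, 80392836 to 80394949) has 1266 bases and 160 amino acids, and Gadd45g (chromosome 13, plus strand, 51942047 to 51943837) has 1071 bases and 159 amino acids. Exon 2 lies inside the coding sequence and is printed to show how far the members differ, with capitals at the 49 of 102 bases that are the same in all 3 (48.0%).
Gadd45a: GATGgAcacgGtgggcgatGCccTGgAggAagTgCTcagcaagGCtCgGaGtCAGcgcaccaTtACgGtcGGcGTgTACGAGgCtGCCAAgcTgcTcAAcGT
Gadd45b: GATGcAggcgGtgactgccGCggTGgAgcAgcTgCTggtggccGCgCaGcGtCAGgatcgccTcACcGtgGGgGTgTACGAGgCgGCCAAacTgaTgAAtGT
Gadd45g: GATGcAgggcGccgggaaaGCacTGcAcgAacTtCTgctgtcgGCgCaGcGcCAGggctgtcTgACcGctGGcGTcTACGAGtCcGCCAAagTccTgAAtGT
Gadd45b and Gadd45g were the most alike over this exon, with 65.7% of bases the same, against 62.7% for Gadd45a and Gadd45b and 58.8% for Gadd45a and Gadd45g. The longest exact run shared by any pair of the full transcripts was 17 bases, between Gadd45a and Gadd45g.

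The 250 bases before each transcript start (NCBIM37, mm9) are printed to compare the letters before the 3 genes. A link between these letters and the folds was not tested. Capitals mark the motifs found, with both strands searched, from the CCAAT box (CCAAT), the octamer (ATGCAAAT), the TATA box (TATAAA), the E-box (CACGTG), the GC box (GGGCGG), the cAMP response element (TGACGTCA) and the AP-1 site (TGACTCA).
Gadd45a, chr6:66987401-66987650, minus strand: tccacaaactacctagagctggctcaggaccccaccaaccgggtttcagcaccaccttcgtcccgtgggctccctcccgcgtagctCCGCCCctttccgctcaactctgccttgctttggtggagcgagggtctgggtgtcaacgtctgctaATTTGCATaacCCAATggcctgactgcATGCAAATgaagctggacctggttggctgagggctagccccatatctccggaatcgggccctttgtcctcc
Gadd45b, chr10:80392586-80392835, plus strand: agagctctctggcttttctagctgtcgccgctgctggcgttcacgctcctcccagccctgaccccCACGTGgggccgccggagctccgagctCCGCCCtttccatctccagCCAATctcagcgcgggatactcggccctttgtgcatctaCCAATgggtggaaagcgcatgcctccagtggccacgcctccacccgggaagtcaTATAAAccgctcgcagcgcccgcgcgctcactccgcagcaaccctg
Gadd45g, chr13:51941797-51942046, plus strand: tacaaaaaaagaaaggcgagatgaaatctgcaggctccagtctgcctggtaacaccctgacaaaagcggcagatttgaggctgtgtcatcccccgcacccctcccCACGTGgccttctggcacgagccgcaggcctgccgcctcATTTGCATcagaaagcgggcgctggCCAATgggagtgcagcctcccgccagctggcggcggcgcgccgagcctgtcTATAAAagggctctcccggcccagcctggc
The CCAAT letters occurred in all 3 windows, as they did in 35.2% of the 20124 coding gene windows of this length. A TATA box and an E-box each occurred in the windows of Gadd45b and Gadd45g and not in that of Gadd45a, against 11.8% and 6.93% of all windows. The TATA letters ended 41 bases before the Gadd45b start and 25 bases before the Gadd45g start. The octamer occurred at 2 places in the Gadd45a window, on each side of its CCAAT box, and at 1 place in that of Gadd45g, against 1.61% of all windows. A GC box was found for Gadd45a and Gadd45b (44.1% of all), and neither the full cAMP response element (2.04%) nor the AP-1 letters (3.88%) were found for any member. No motif overlapped another. A match is a description of letters, not of a bound site.

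**Figure D1:**
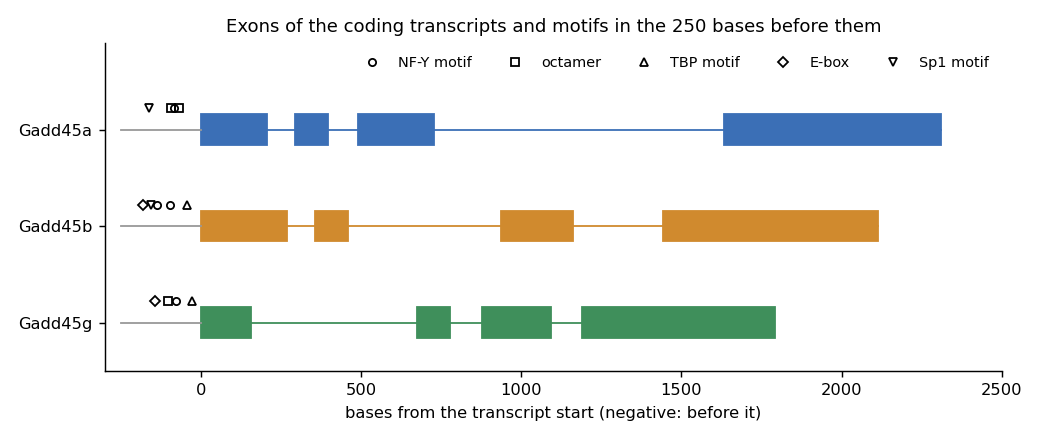
Exons (boxes) and introns (lines) of the 3 coding transcripts by distance in bases from the transcript start, with symbols for motifs in the 250 bases before it. The NF-Y motif is the CCAAT box, the TBP motif the TATA box and the Sp1 motif the GC box. Each gene has 4 exons, and the TBP motif and E-box stand before Gadd45b and Gadd45g only, of these 3 genes.

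FPKM of at least 1 was listed for 9836 to 12886 genes per library. The smallest steps between low values gave an approximate number of fragments behind each FPKM, and intervals below are exact 95% intervals from those numbers that cover counting error only. Pan-neuronal markers were found in every library. All 4 of those in the tables (Tubb3, Rbfox3, Snap25 and Syt1) were above 1 FPKM, with summed levels of 202 to 1024 FPKM. Of 7 astrocyte markers, 6 also reached 1 FPKM in every library, so these levels do not show a purely neuronal culture. The pairs lay on different scales. The median ratio of the NMDA control to the etoposide control was 2.95 over genes at 1 FPKM in both, so levels are compared within a pair unless stated otherwise. In such bulk samples fewer cells of a type and less RNA per cell cannot be told apart.

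With etoposide, Gadd45g and Gadd45b were higher than in the control culture and Gadd45a was lower. Gadd45g was at 3.73 FPKM in the control library and 5.99 in the etoposide library, about 57 and 77 fragments, a ratio of 1.60 (interval 1.12 to 2.30). Gadd45b was at 2.19 and 3.04 FPKM, about 41 and 48 fragments, a ratio of 1.39 (0.898 to 2.16), so that counting error alone spans no difference. Gadd45a, the p53 target of the family, was at 3.50 and 2.15 FPKM, about 62 and 33 fragments, and thus 1.63-fold lower (1.05 to 2.56). The treated library was above its control for Gadd45g by more than counting error, and below it for Gadd45a by more than counting error, by these intervals.

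Most genes had lower FPKM with etoposide, and the position of the members among all genes was therefore recorded. On the log2 scale with 1 FPKM added to each value, the median difference of the 10681 genes compared (FPKM of at least 1 in either library) was -0.32, and 76.7% of them lay below 0. The log2 fold of Gadd45g was 0.56, higher than that of 97.5% of genes. That of Gadd45b was 0.34, higher than 93.4%. That of Gadd45a was -0.51, which left 32.9% of genes below it, so Gadd45a stood in the main body of all genes while the other members stood toward its upper end. Scaled to the median ratio of all genes, the ratios were 2.10 (1.47 to 3.02) for Gadd45g, 1.83 (1.18 to 2.84) for Gadd45b and 0.806 (0.512 to 1.25) for Gadd45a, so on that scale the interval of Gadd45a spans no difference. None of the 3 was at least 2-fold higher or lower on that log2 scale, a rule met by 7.84% of genes (0.477% higher, 7.36% lower). Of the genes past the rule 6.09% were higher, and 39.6% were with median scaling. None of the 3 was in the authors' deposited table for etoposide, which listed 692 genes, 3.08% of all. Genes with a short locus had higher folds than others: the median log2 fold was -0.07 over 1168 genes spanning at most 5 kb. Gadd45g was above 93.2%, Gadd45b above 83.1% and Gadd45a above 17.7% of those.

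With NMDA, Gadd45b and Gadd45g were lower than in the control culture. Gadd45b was at 6.59 FPKM in the control library and 4.95 in the NMDA library, about 165 and 115 fragments, and thus 1.33-fold lower (1.04 to 1.70). Gadd45g was at 30.3 and 25.0 FPKM, about 622 and 473 fragments, 1.21-fold lower (1.07 to 1.37). Gadd45a was at 3.68 and 3.98 FPKM, about 89 and 88 fragments, a ratio of 1.08 (0.796 to 1.47). The NMDA library was thus below its control for Gadd45b and Gadd45g by more than counting error, and not for Gadd45a. The median log2 fold of this pair was 0.02 over 13028 genes. Gadd45b, at -0.35, had 3.22% of genes below it, Gadd45g, at -0.27, had 5.73%, and Gadd45a, at 0.09, had 70.2%. Among 1407 genes spanning at most 5 kb, 7.96% lay below Gadd45b and 11.6% below Gadd45g. None of the 3 was at least 2-fold higher or lower, as were 1.17% of genes (0.438% higher, 0.729% lower), and none was among the 63 genes (0.281% of all) of the authors' deposited table for NMDA.

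**Figure D2:**
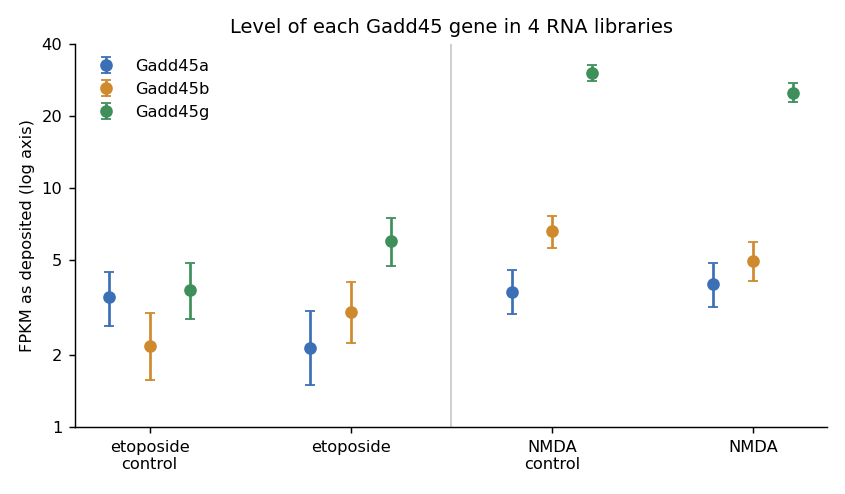
FPKM as deposited (log axis) of each Gadd45 gene in the 4 libraries, with exact 95% counting intervals as bars. Gadd45g and Gadd45b lie higher with etoposide than in its control and lower with NMDA than in its control. With the control first, Gadd45g is at 30.3 and 25.0 FPKM in the NMDA pair and 3.73 and 5.99 in the etoposide pair. The pairs lie on different scales, with a median ratio of all genes of 2.95 between the controls.

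The control cultures differed in Gadd45b and Gadd45g as deposited, and in Gadd45a and Gadd45g relative to all genes. Gadd45g was 8.11-fold higher in the NMDA control than in the etoposide control (interval 6.18 to 10.8), at 30.3 against 3.73 FPKM. Gadd45b was 3.01-fold higher (2.13 to 4.35), close to the median ratio of all genes, 2.95. Gadd45a was at 3.68 and 3.50 FPKM, a ratio of 1.05 (0.751 to 1.48). Relative to all genes, then, Gadd45g was 2.75-fold higher (2.10 to 3.68), Gadd45a was at 0.356 (0.255 to 0.501), and Gadd45b at 1.02 (0.723 to 1.48). By log2 fold, 95.7% of the 12987 genes compared lay below Gadd45g, 44.8% below Gadd45b and 1.71% below Gadd45a. As deposited, 2 of the 3 members (Gadd45b and Gadd45g) were at least 2-fold higher in the NMDA control, as were 75.1% of genes, while 0.708% were lower (75.8% in either direction). That share is near the members' own, and the count says little about them. This difference shares its libraries with both treatments.

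Cell type markers differed between the controls as well. The pan-neuronal markers summed to 400 FPKM in the etoposide control and 959 in the NMDA control, with 3 of 4 at least 2-fold higher, near the 75.1% of all genes. Of the 7 astrocyte markers, 6 were compared and all 6 were at least 2-fold higher, with a median log2 fold 1.73 above that of all genes, and the list summed to 98.2 FPKM in the etoposide control library, 50.8 in the etoposide library, 877 in the NMDA control library and 856 in the NMDA library. The 7 oligodendrocyte lineage markers summed to 20.3, 4.70, 193 and 188 FPKM in the same order. In the etoposide pair Olig1 alone was at 16.6 and 3.36 FPKM. Sox10 was at 0.058 FPKM in the etoposide control and listed at 0 with etoposide. The 8 progenitor markers summed to 88.7, 30.8, 413 and 361 FPKM, of which Vim was 72.5 and 24.4 in the etoposide pair. Within the etoposide pair these sums were lower with etoposide, and so was that of the pan-neuronal markers, at 400 and 202 FPKM. Gadd45a was lower there too, and Gadd45b and Gadd45g were not. The 5 vascular markers summed to 5.32, 0.398, 29.0 and 23.5 FPKM, with Cldn5 listed at 0 in every library but the NMDA control. Of these sums Acta2 was 4.61 FPKM in the etoposide control and 0.0944 with etoposide. The 5 microglial markers summed to at most 4.01 FPKM, with C1qa listed at 0 in the etoposide control. The part of cell makeup in the Gadd45 levels was not tested.

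Exchanging the controls turned the direction of Gadd45b and Gadd45g as deposited, and that of Gadd45a and Gadd45g relative to all genes. Against the NMDA control, etoposide gave FPKM ratios of 0.585 for Gadd45a, 0.461 for Gadd45b and 0.198 for Gadd45g, beside a median of 0.251 for all genes. Divided by that median, Gadd45a was 2.33-fold (interval 1.51 to 3.51) and Gadd45b 1.84-fold higher (1.30 to 2.55), while Gadd45g was at 0.787 (0.613 to 0.999). Of the 3, Gadd45b was the one whose ratio lay above the median ratio of all genes against either control. NMDA against the etoposide control gave, on the same scale, 0.377 for Gadd45a (0.269 to 0.531), 0.753 for Gadd45b (0.523 to 1.10) and 2.23 for Gadd45g (1.69 to 2.98). Relative to all genes, the ratio of Gadd45b with NMDA was thus below 1 against either control, though against the etoposide control its interval spans no difference. Gadd45g lay on opposite sides of its 2 controls for each treatment. A ratio to the other control includes the difference between the controls, so it is not a separate check.

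**Figure D3:**
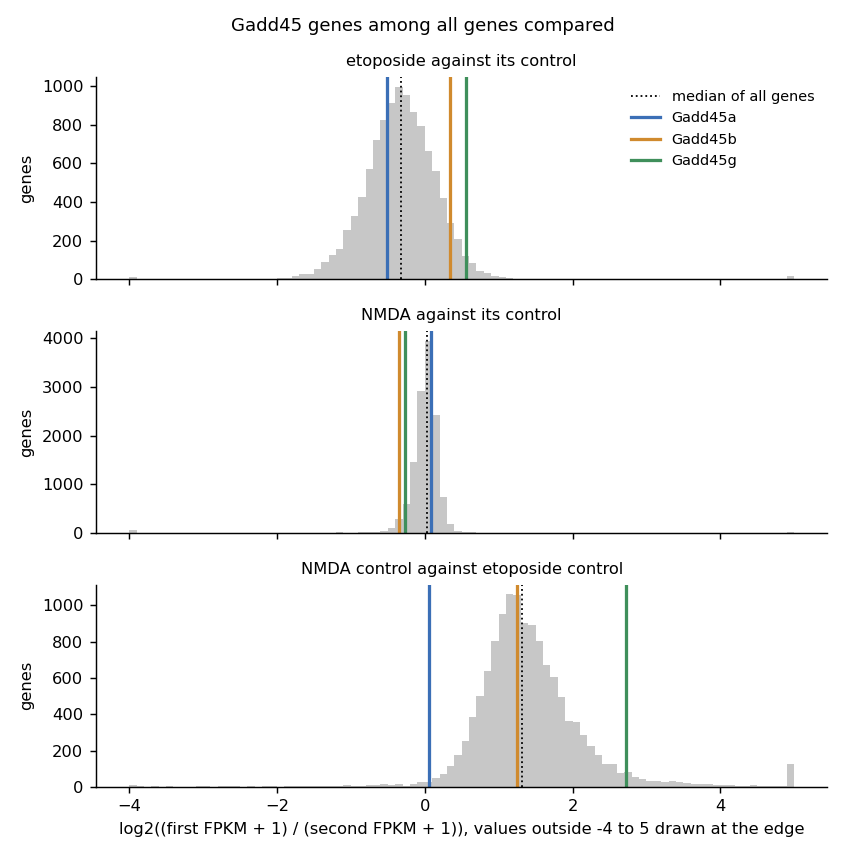
Histograms of the log2 fold, with 1 FPKM added, of all genes compared for etoposide against its control, NMDA against its control and the NMDA control against the etoposide control, with coloured lines for the Gadd45 genes and a dotted line at the median of all genes. Gadd45g lies above 97.5% of genes with etoposide, and between the controls Gadd45a lies toward the low end and Gadd45g toward the high end.

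Shares within the family do not move with the scale of a library. In the etoposide control the 3 genes were near one another, and Gadd45a held 38.8% of the family's fragments (interval 31.2 to 46.8%), Gadd45b 25.6% (19.1 to 33.1%) and Gadd45g 35.6% (28.2 to 43.6%). With etoposide Gadd45a held 20.9% (14.8 to 28.1%), Gadd45b 30.4% (23.3 to 38.2%) and Gadd45g 48.7% (40.7 to 56.8%). The intervals of Gadd45a in this pair did not overlap, and those of the other members did. In the NMDA pair Gadd45g made up most of the family, with 71.0% in the control (67.9 to 74.0%) and 70.0% with NMDA (66.4 to 73.4%). Gadd45a held 10.2% (8.24 to 12.4%) and 13.0% (10.6 to 15.8%) there, and Gadd45b 18.8% and 17.0%, with overlapping intervals for each gene. As a share of the family's summed FPKM, Gadd45g held 39.6%, 53.6%, 74.7% and 73.7% in the 4 libraries in the order of the plot of shares.

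The order of the levels, which FPKM gives per length, differed between libraries accordingly. In the etoposide control Gadd45g and Gadd45a did not differ beyond counting error, with an FPKM ratio of 1.07 (0.731 to 1.55), and Gadd45b was below Gadd45a at a ratio of 0.624 (0.410 to 0.941). With etoposide Gadd45g was 1.97-fold above Gadd45b (1.36 to 2.89), and Gadd45b and Gadd45a did not differ beyond counting error, with a ratio of 1.41 (0.888 to 2.27). In the NMDA control Gadd45g was 4.60-fold above Gadd45b (3.87 to 5.49) and Gadd45b 1.79-fold above Gadd45a (1.38 to 2.34). With NMDA the last ratio was 1.24 (0.935 to 1.66), an interval that spans no difference. The ratio of Gadd45g to Gadd45a was 1.07 and 2.78 in the etoposide pair (control first), and 8.23 and 6.29 in the NMDA pair.

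**Figure D4:**
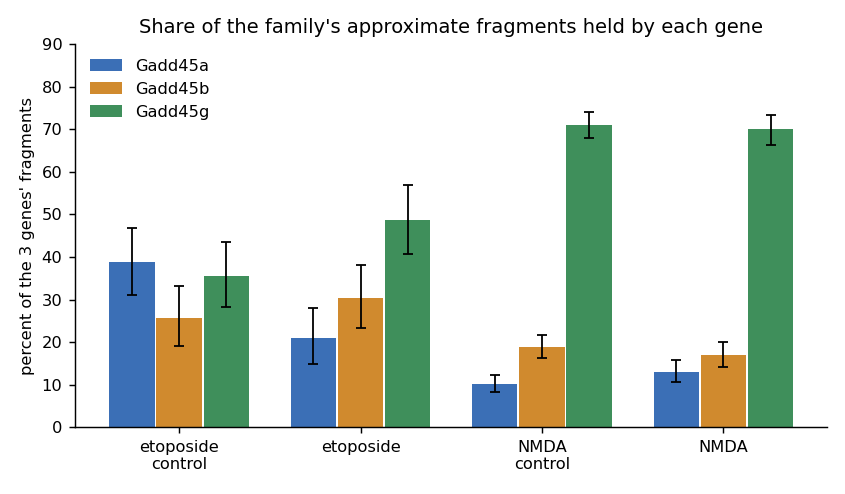
Percent of the 3 genes' approximate fragments held by each Gadd45 gene in each library, with exact 95% binomial intervals as bars. Gadd45a goes from 38.8% in the etoposide control to 20.9% with etoposide, and Gadd45g holds about 70% in the NMDA pair.

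Gadd45a has a partner on the other strand that limits its values. The deposited tables give Gadd45a a locus of 45557 bases that it shares with E230016M11Rik, a long noncoding RNA on the plus strand, and 238 bases (19.5%) of the Gadd45a transcript lie in exons of that RNA. E230016M11Rik was listed at 0.451 FPKM in the etoposide control and 0.679 with etoposide, a ratio of 1.50 (0.668 to 3.48), and at 1.30 and 1.20 FPKM in the NMDA pair. It was thus below Gadd45a in all 4 libraries. The sources used here do not say whether the authors' counting used strand, so reads of the shared bases are uncertain. Gadd45b and Gadd45g share their locus with no other gene of the tables.

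Genes of the pathways in which GADD45 proteins act were described from lists. The lists were set beside all genes compared, not beside genes of like span. With etoposide, genes spanning at most 5 kb had a median log2 fold of -0.07. The part of gene span in the list medians was not tested. With etoposide 9 of the 10 compared genes of the p38 and JNK cascade lay below 0, where 76.7% of all genes did, so the count is near that of all genes. The median log2 fold of the list was -0.58 beside -0.32 for all genes. Mapk10, a neuronal JNK, was at 12.9 and 5.82 FPKM. On the log2 scale with 1 FPKM added it was the 1 list gene at least 2-fold lower, as were 7.36% of all genes. Map2k4 was at -0.97 on that scale, though its plain FPKM ratio was past 2-fold. Map2k4 was at 18.5 and 8.98, Mapk9 (a JNK) at 24.8 and 14.1 and Mapk14 (p38 alpha) at 5.46 and 3.18 FPKM. Map3k4, the kinase that GADD45 proteins bind, was at 3.64 and 2.11 FPKM. With NMDA the median of this list was 0.05, and Map3k4 was at 10.0 and 9.57 FPKM.

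The demethylation and repair list had a median of 0.10 over 11 genes with etoposide, beside -0.32 for all genes. Of the 11 genes 6 lay above 0, where 23.3% of all genes did, and 8 lay above the median of all genes and 3 (Tet1, Tet3 and Apobec1) below it. Ercc5, a repair nuclease, was at 3.0 and 4.41 FPKM, and Tdg, a glycosylase that removes oxidised methylcytosine, at 3.35 and 4.23. The methylcytosine oxidases Tet3 (5.43 and 3.05) and Tet1 (2.91 and 1.69) were lower, as was the deaminase Apobec1 (2.93 and 1.21). On the log2 scale with 1 FPKM added, no gene of the list was 2-fold higher or lower in either comparison. Apobec1 was at -0.83 on that scale with etoposide, though its plain FPKM ratio was past 2-fold. With NMDA the median of the list was 0.017. Of the cell cycle partners, Pcna was at 11.7 and 15.4 FPKM and Cdkn1a, the p21 inhibitor, at 13.2 and 12.4 with etoposide, and the other 3 were below 1 FPKM in both libraries.

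The other growth arrest and DNA damage genes and the p53 targets had medians above that of all genes with etoposide. Ddit3 (also called Gadd153), a stress factor, was at 9.10 and 18.7 FPKM, and Ppp1r15a (Gadd34), which resets translation after stress, at 6.66 and 10.8. Ddit4 was at 13.2 and 13.4, Ddit4l at 1.13 and 0.690 and Gadd45gip1, a binding partner of the family, at 3.39 and 3.48 FPKM. The median of the 25 p53 targets, a list without Gadd45a, was 0.08, with 15 above 0 and 10 below where 23.3% of all genes lay above 0. Above the median of all genes lay 24 of the 25, and 1 lay below it. Pmaip1, a cell death gene, was at 3.41 and 6.26 FPKM, Rps27l at 19.6 and 28.3, Btg2 at 3.11 and 4.77 and Trp53inp1 at 6.69 and 9.58. The position of Gadd45a, at -0.51, was below that of all 25, the lowest of which was at -0.39. The counting interval of Gadd45a on this scale was -0.93 to -0.06 and takes in that lowest value. None of the 25 was at least 2-fold higher or lower on the log2 scale with 1 FPKM added, or in the authors' deposited table.

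Activity effector genes, a list without the Gadd45 genes, had a median of -0.04 over 19 genes with etoposide. That of all genes was -0.32, and that of genes spanning at most 5 kb was -0.07. Of the 19 genes 9 lay above 0, where 23.3% of all genes did, and 15 lay above the median of all genes. Ier2, an early-response gene, was at 1.82 and 5.46 FPKM. On the log2 scale with 1 FPKM added it was the 1 gene of the list at least 2-fold higher, as were 0.477% of all genes. Rgs2 and Dusp1 were at 0.99 and 0.85 on that scale, though their plain FPKM ratios were past 2-fold. Rgs2 was at 5.01 and 10.9 and was in the authors' deposited table, Dusp1, a MAP kinase phosphatase, at 3.36 and 6.86, and Nptx2 at 2.93 and 1.63 FPKM. With NMDA this list had a median of -0.07, with 14 of 21 below 0 against 42.8% of all genes. Gadd45b, at -0.35, was below all 21. Its counting interval was -0.64 to -0.05 and takes in the lowest value of the list, -0.30. The highest log2 folds of the list with NMDA were 0.39 for Ier2, 0.37 for Arc and 0.32 for Homer1. Arc, a regulator of synapses, was at 7.27 and 9.66 FPKM, and Homer1, a synaptic scaffold, at 24.7 and 31.1.

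Regulators linked to the Gadd45 genes sat with all genes under etoposide: the median of the 15 compared was -0.34 beside -0.32, and 13 of them lay below 0, where 76.7% of all genes did. Foxo3, a stress factor, was at 5.46 and 2.84 FPKM, Nfyb, a subunit of the factor that binds CCAAT boxes, at 5.95 and 3.11, Smad3 at 1.44 and 0.623, and Foxo1, which the authors' deposited table listed, at 2.52 and 0.944. Trp53 itself was at 3.47 and 2.76 FPKM. With NMDA 10 of the 15 lay above 0, where 57.2% of all genes did, at a median of 0.05 beside 0.02. Egr1, an early-response factor, was at 30.9 and 42.6 FPKM with NMDA and was in the authors' deposited table for NMDA.

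**Figure D5:**
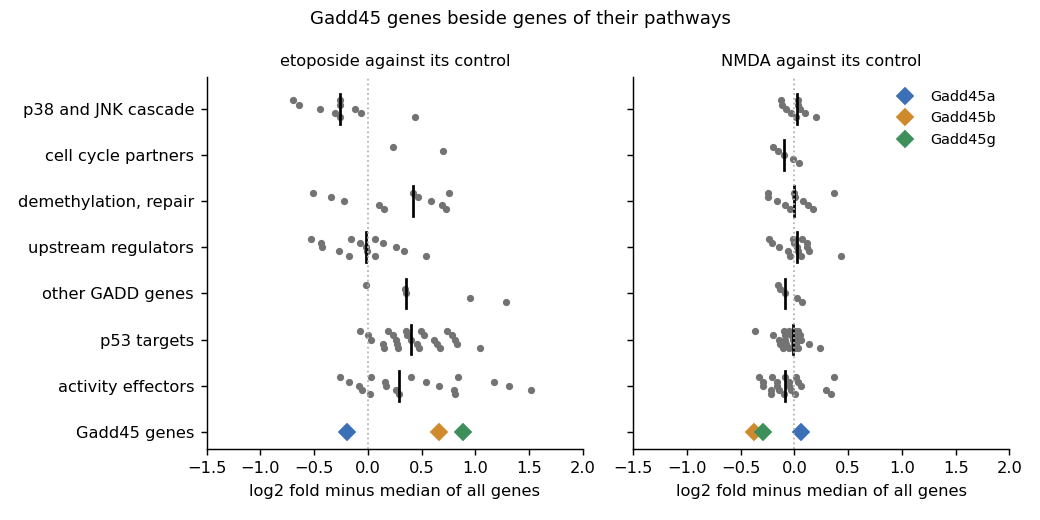
Log2 fold minus the median of all genes for each compared gene (grey points) of 7 pathway lists and for the Gadd45 genes (diamonds), with etoposide and with NMDA, and black bars at list medians where at least 3 genes were compared. Gadd45g and Gadd45b lie on the high side with etoposide and on the low side with NMDA. Gadd45a lies on the other side each time, with counting intervals that span no difference after median scaling.

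The genes with the pattern most like each member were found by the root mean square difference of log2 values over the 4 libraries, each gene centred on its own mean, among 9533 genes at 1 FPKM or more in all 4. Nearest to Gadd45a were Smg1 (difference 0.054), Nefm (0.0594), Bcl2l11 (0.0631), 4930429B21Rik and Gm12238. Nefm, a neurofilament subunit, was at 5.93 and 3.63 FPKM in the etoposide pair (control first) and 6.34 and 7.21 in the NMDA pair. Nearest to Gadd45b were Hist1h2bf (0.0351), Hps5 (0.0461), Nle1 (0.0567), 4930420K17Rik and Ppan, and reads of the histone gene Hist1h2bf are uncertain because near-identical copies exist. Nearest to Gadd45g were Angptl6 (0.0364), Srp14 (0.0496), Nt5c3l (0.0607), Amt and 1810037I17Rik. Srp14, a subunit of the signal recognition particle, was at 33.5, 47.8, 213 and 193 FPKM in the same order. Differences this small lie within the counting error of the members, so which genes are nearest is uncertain. The counting interval of Gadd45b in the etoposide control, for instance, was 1.58 to 2.99 FPKM. Over the 4 libraries the members were not near one another. By nearness Gadd45b had rank 1757 from Gadd45a and rank 7765 from Gadd45g, and Gadd45g had rank 8795 from Gadd45a. This measure takes in differences between the pairs as well as those within them. Between the controls the log2 fold was 2.72 for Gadd45g, 1.25 for Gadd45b and 0.06 for Gadd45a. Within each pair Gadd45b and Gadd45g lay on the same side of their control.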

How the data were processed

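Expression was measured in 4 RNA libraries made from total RNA with a TruSeq kit and paired-end reads, per the labels' protocols. The authors made the FPKM, which entered here as deposited. Cufflinks 2.0.0, Cuffdiff, TopHat, Bowtie and the build mm9 are named, without roles, in the submitters' processing notes. The authors' deposited comparison tables were used only for which genes they list. Groups came from sample titles. The members and gene lists were chosen with earlier results of these data known.

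Folds are differences in log2(FPKM + 1), a pseudocount of 1, over genes at FPKM of at least 1 in either library. They understate the change of low genes. Median scaling multiplied the control by the median ratio of genes at 1 FPKM in both libraries. Approximate fragments were FPKM times transcript length less 200 bases, divided by the FPKM of 1 fragment per kb. That step was sought among low values of 1299 single-exon genes. It was 0.0573, 0.0677, 0.0425 and 0.0461 in the etoposide control, etoposide, NMDA control and NMDA libraries. These are medians of only 37, 39, 39 and 29 values, and error in the steps is not part of the intervals. Intervals are exact (Clopper-Pearson for ratios and shares, Poisson for levels). No test was run with 1 library per group. Named genes were the members, up to 4 genes of each list with the largest fold, and the 5 genes nearest in pattern. Map3k4, Tdg, Trp53, Gadd45gip1, Aurka, Arc, Homer1, Egr1, E230016M11Rik and marker genes were named outside this rule, after their values were seen. The marker Map2 was not analysed here. Exons, transcripts and motifs came from GENCODE vM1 and NCBIM37. Folds, scaling and intervals were tested on simulated data with known fragment numbers, so the step from FPKM to fragments was not tested. The changed genes there had larger folds than the members had with either treatment. Python 3.11.15, scipy 1.17.1 and pandas 2.3.3 were used.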

Additional observations from a re-analysis of the deposited data

How the results depend on the processing

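A single library per group, and about 33 to 77 fragments per member in the etoposide pair, limit these results. Of 39 values of the members' log2 folds under other settings, 25 stayed within the counting interval. For etoposide and NMDA against their own controls, the pseudocount of 0.1 FPKM, median scaling and upper quartile scaling all did. With median scaling, however, the etoposide ratio interval of Gadd45a came to span no difference (0.512 to 1.25). That of Gadd45b no longer spanned it (1.18 to 2.84). Against the other control as deposited, the log2 folds were -0.91 for Gadd45b and -2.16 for Gadd45g with etoposide, and 0.90 and 2.46 with NMDA. With median scaling added they were 0.71 for Gadd45a and -0.30 for Gadd45g with etoposide, and -1.21 for Gadd45a and 1.09 for Gadd45g with NMDA. Between the controls, median and upper quartile scaling gave -1.27 and -1.33 for Gadd45a, 0.029 and -0.023 for Gadd45b, where the second took the opposite sign, and 1.38 and 1.33 for Gadd45g. Scaling lowers every log2 fold of this comparison by construction. With etoposide, 51 genes were at least 2-fold higher and 786 lower. A pseudocount of 0.1 FPKM gave 127 and 1551, and median scaling 130 and 198. With no filter on low values, 3 genes in place of 1 of the p38 and JNK list and 4 in place of 2 of the cell cycle list lay above the median of all genes with etoposide. By FPKM in place of fragments, Gadd45g held 74.7% and 73.7% of the family in the NMDA control and NMDA libraries, against 71.0% and 70.0%. The other 52 of 58 counts and 10 of 12 shares moved by less than 1.5 times or than the counting interval. No paired analysis was possible because each group has 1 library.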

Other observations

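The cell cycle proteins that GADD45 proteins bind or inhibit were higher in the NMDA control as deposited, as most genes were. Ccnb1, the mitotic cyclin, was at 0.515 FPKM in the etoposide control and 6.07 in the NMDA control, Cdk1, its kinase, at 0.311 and 3.49, and Aurka at 0.523 and 2.19. Pcna, the replication clamp, was at 11.7 and 48.8 FPKM, and Cdkn1a, the p21 inhibitor of cell cycle kinases, at 13.2 and 25.2. Over the 5 genes the median log2 fold between the controls was 1.77 beside 1.32 for all genes, and 3 of the 5 lay above that median. At least 2-fold higher were 4 of the 5, near the 75.1% of all genes. With NMDA against its own control the same 5 genes had a median of -0.073.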
